A study of Rattus norvegicus with 10 samples.

Results

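The Hsp70 chaperones are ATP-driven proteins that bind exposed hydrophobic stretches of other proteins, hold them and release them for folding, transport or degradation. J-domain proteins deliver clients and start ATP hydrolysis, and nucleotide exchange factors, among them the larger Hsp110 relatives, reset the cycle. Most members are made at all times, while Hspa1a, Hspa1b and Hsph1 are textbook targets of heat shock factor 1, which switches them on when proteins unfold. In the brain the constitutive member Hspa8 is very abundant and also takes the clathrin coat off synaptic vesicles.

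10 genes of the Hsp70 and Hsp110 families were followed, of the 32623 genes in the deposited table. They were chosen by symbol from a list drawn up with earlier results of these data known, and the highest mean FPKM would have chosen between rows sharing a symbol. Each symbol had 1 row, so no level was used in the selection of a row. Hspa1b and Hsph1 are described as inducible members. The other 8, Hspa1l, Hspa2, Hspa4, Hspa4l, Hspa8, Hspa12a, Hspa13 and Hspa14, are described as constitutive.

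The libraries were made from the polyadenylated RNA of cerebral cortex, taken from adult male Sprague-Dawley rats. 5 libraries came from rats given electroacupuncture (EA), a current passed between acupuncture needles at the crown and below the nose, and 5 from control rats that were bound in the same way for the same time. All rats were then anaesthetised with pentobarbital and perfused with saline, so both groups share binding and anaesthesia. The labels number the libraries within each group but do not say outright that each is 1 rat, so the tests measure the spread between these libraries.

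Deposited counts summed to 47843590 to 60941939 per EA library (median 55326262) and to 55223193 to 61707722 per control library (median 59113127). Levels are given as FPKM, fragments scaled to gene length and library size, which can be compared between genes. Counts were tested with edgeR in the 15169 genes that reached an FPKM of 0.5 in 5 or more libraries, and all 10 members were among them. Genes whose adjusted p was under 0.05 (Benjamini-Hochberg, over every gene tested) and whose fold change was above 1.2 are called. The summed FPKM of 5 neuron markers was 1122 to 1590 in EA and 1296 to 1411 in control. Of 3 listed markers of choroid plexus and meninges, Ttr did not exceed 0.752 in any library. Dcn had 5.43 to 9.15 in EA and 4.67 to 9.01 in control, and Slc6a20 had 5.6 to 14.0 in EA and 8.45 to 20.0 in control.

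The regulatory sequences looked for in this family are short. Heat shock factors bind repeats of a 5-base block, nGAAn, in alternating orientation. RefSeq (rat assembly GRCr8) gives the 250 bases before and 50 after the start of 8 of the 10 members, and the entry for Hspa1b was not among them. The 2 promoters with 3 alternating blocks are shown, since they belong to the inducible member Hsph1 and to the most abundant member Hspa8. Capitals mark the matches to GAANNTTCNNGAA or TTCNNGAANNTTC, searched on both strands (each pattern is the reverse complement of the other).
Hsph1, chr12:10427118-10427417, plus strand: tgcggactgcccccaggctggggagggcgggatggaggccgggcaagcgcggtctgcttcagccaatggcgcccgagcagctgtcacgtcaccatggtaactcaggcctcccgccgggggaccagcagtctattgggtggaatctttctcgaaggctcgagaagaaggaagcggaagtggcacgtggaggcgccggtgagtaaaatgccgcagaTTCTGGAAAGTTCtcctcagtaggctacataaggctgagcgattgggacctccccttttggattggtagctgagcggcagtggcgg
Hspa8, chr8:50080264-50080563, plus strand: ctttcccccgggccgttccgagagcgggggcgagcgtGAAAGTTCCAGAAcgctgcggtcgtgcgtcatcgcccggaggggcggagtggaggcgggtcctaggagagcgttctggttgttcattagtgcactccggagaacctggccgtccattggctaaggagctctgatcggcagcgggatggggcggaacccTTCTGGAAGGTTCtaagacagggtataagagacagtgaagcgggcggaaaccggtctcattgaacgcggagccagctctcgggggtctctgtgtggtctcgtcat
In Hsph1 the single match begins 36 bases before the start, and in Hspa8 the matches begin 213 and 55 bases before it. Such a match was present in 267 of 33469 promoters of the same length (0.798%). The shorter patterns TTCNNGAA or GAANNTTC, which lie inside the longer ones, were present in 15.9% of promoters and in 4 of the 8 members, namely Hsph1, Hspa8, Hspa2 and Hspa4l. The RefSeq promoter named Hspa1a, a gene listed with the synonym Hspa1b, was searched too. It had 0 matches to the longer and 0 to the shorter patterns, and it was not assigned to either Hspa1 row. A match describes the letters and is not a measured binding site.

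Among the members, Hspa1b differed most between the groups. Hspa1b encodes the stress-inducible Hsp70 of the cytosol and lies on chromosome 20, bases 4877324 to 4879779 of Rnor_6.0, minus strand. Its FPKM was 65.6, 8.41, 47.2, 16.4 and 37.5 in EA 1 to EA 5, against 5.10, 4.47, 5.97, 5.07 and 6.82 in control 1 to control 5. All EA libraries lay above all control libraries, and the spread was wide within EA and narrow within control. The mean was 35.0 ± 23.2 in EA and 5.49 ± 0.918 in control (SD, n = 5 each). The log2 fold change was 2.70 with a standard error of 0.45. The edgeR adjusted p was 0.0897, so Hspa1b was not called, while DESeq2 on the same counts gave an adjusted p of 7.85e-05 and called it. Of the 10 edgeR fits that left out 1 library, only 1 called it, the fit without EA 2 (log2 fold change 2.95, adjusted p = 0.0106). EA 2 was its lowest EA library, so leaving it out raises the fold change, and this call is no added support. The adjusted p reached 0.315 in these fits (without control 3). In bulk cortex more expressing cells and more RNA per cell cannot be told apart, just as fewer cells of a type and less RNA per cell cannot.

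**Figure D1:**
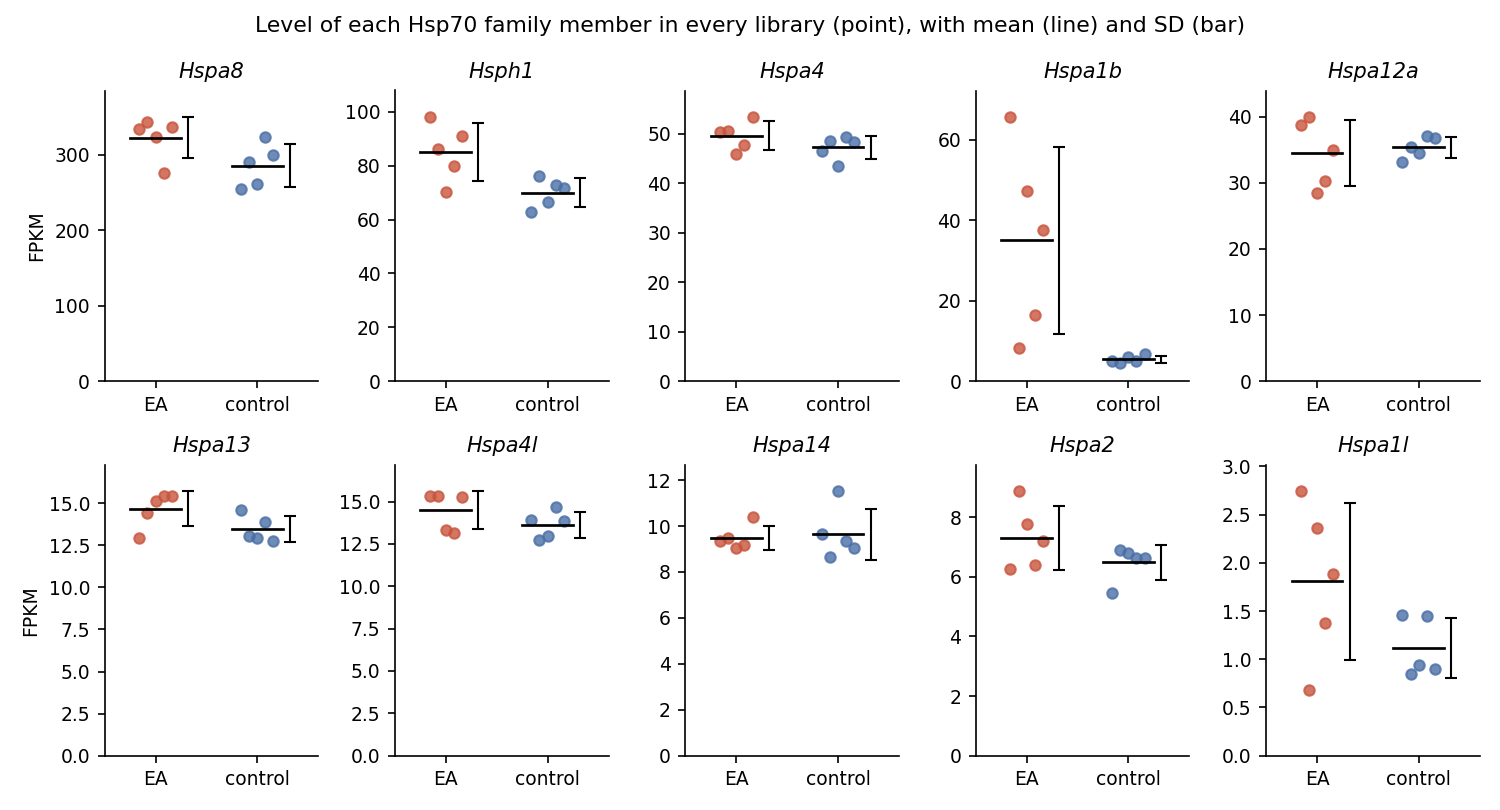
FPKM of each of the 10 members in every library, EA left and control right, ordered by the EA mean; points are libraries, the line is the mean and the bar the SD, and each panel has its own axis from 0. Hspa1b spans 8.41 to 65.6 in EA and 4.47 to 6.82 in control with no overlap, while the 2 groups overlap in the other 9 members.

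Hspa1a and Hspa1b are known as near-identical copies, and the table holds a second row of this kind. LOC108348108, described in the file as heat shock 70 kDa protein 1A, lies on chromosome 20, bases 2699712 to 2701815 of Rnor_6.0, minus strand. Its counts were 54, 1119, 11, 1555 and 2 in EA 1 to EA 5, against 0, 1, 15, 365 and 178 in control 1 to control 5. The row was high in EA 2, EA 4, control 4 and control 5 and at 0 to 54 in the other libraries, so the groups overlapped, and it did not pass the expression filter. Of the counts of both rows together it held 0.580%, 46.1%, 0.191%, 40.3% and 0.0366% in EA 1 to EA 5, against 0%, 0.144%, 1.73%, 33.8% and 14.2% in control 1 to control 5. EA 2 and EA 4, the EA libraries with the lowest Hspa1b, were thus those with the largest share in the other row. Whether the rows divide the reads of 1 gene or report 2 genes was not tested, and each row alone is uncertain for this reason.

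The sum of both rows was 9317, 2427, 5773, 3858 and 5462 counts in EA 1 to EA 5, against 770, 694, 867, 1080 and 1251 in control 1 to control 5. As CPM (counts scaled to the library total) it was 168, 39.8, 121, 70.2 and 96.1 in EA, against 13.0, 11.4, 15.5, 19.6 and 20.3 in control. The order of the EA libraries stayed as for Hspa1b alone, and every EA library was above every control library. Tested as 1 gene in the same edgeR fit, a step added after the data were seen, the sum rose in EA with a log2 fold change of 2.66 and a standard error of 0.33 (adjusted p = 0.0160). The standard error was 0.45 for Hspa1b alone. LOC108348108 was high in EA 2 and EA 4, where Hspa1b was lowest, so adding it narrows the spread within EA. The smaller standard error is therefore no added support. The adjusted p of the sum ran from 0.00124 (without EA 2) to 0.0997 (without control 3) when 1 library was left out, and it was under 0.05 in 4 of these 10 fits, those without EA 1, EA 2, EA 3 or EA 4. The log2 fold change in these fits was 2.38 to 2.86.

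**Figure D2:**
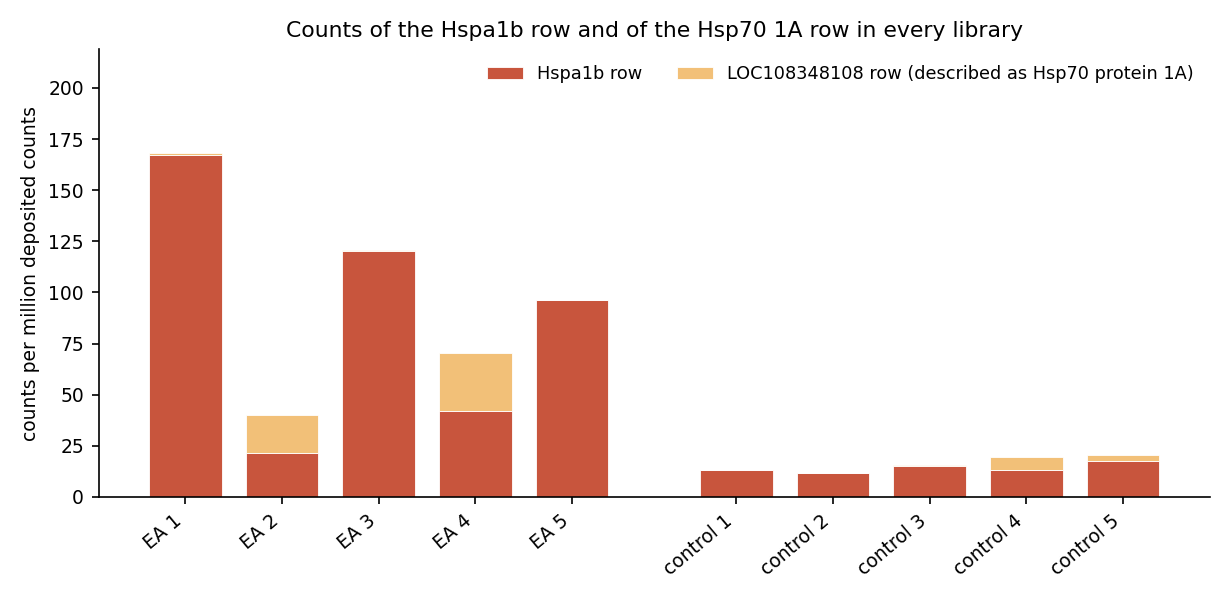
CPM (deposited counts scaled to the library total) of the Hspa1b row (red) with the LOC108348108 row (yellow) stacked on it, for each EA library (left) and each control library (right). The yellow part is large in EA 2, EA 4 and control 4, smaller in control 5 and almost absent elsewhere, and the lowest EA stack (39.8) is above the highest control stack (20.3).

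Hspa1l, a relative best known from testis, lies 79514 bases from Hspa1b in the same region of chromosome 20 in Rnor_6.0. In GRCr8, RefSeq places Hspa1l at bases 3853496 to 3860223 and Hspa1a at 3859756 to 3863800, so their ends overlap there. Whether Hspa1 reads fall in the Hspa1l row was not tested. Hspa1l was the lowest of the members, with an FPKM of 2.74, 0.684, 2.36, 1.37 and 1.88 in EA 1 to EA 5, against 1.46, 0.846, 0.936, 1.45 and 0.903 in control 1 to control 5. EA 1, EA 3 and EA 5 lay above all control libraries and EA 2 below all of them. The libraries of EA fell in the same order as for Hspa1b, with EA 1 highest, then EA 3, EA 5, EA 4 and EA 2. Its log2 fold change was 0.72 with a standard error of 0.33 (edgeR adjusted p = 0.359), and DESeq2 did not call it (adjusted p = 0.214).

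Hsph1, the stress-inducible Hsp110 that resets Hsp70 and holds unfolded proteins, was the second most abundant member. It lies on chromosome 12, bases 6322668 to 6341902 of Rnor_6.0, minus strand. Its FPKM was 98.0, 86.1, 70.1, 79.8 and 91.0 in EA 1 to EA 5, against 62.8, 76.2, 66.4, 72.8 and 71.7 in control 1 to control 5. 4 of the 5 EA libraries lay above all control libraries, and EA 3 lay within the control range. The mean was 85.0 ± 10.7 in EA and 70.0 ± 5.35 in control (SD, n = 5 each). With a log2 fold change of 0.30 and a standard error of 0.075, it missed the call with edgeR (adjusted p = 0.178) and was called with DESeq2 (adjusted p = 0.0130). EA 3 was the lowest EA library for Hsph1 and the second highest for Hspa1b, so these inducible members did not rank the EA libraries alike.

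The remaining Hsp110 members differed less. Hspa4, a constitutive exchange factor, had an FPKM of 45.8 to 53.4 in EA (median 50.3) and 43.5 to 49.3 in control (median 48.3). Its log2 fold change was 0.09 with a standard error of 0.046 (edgeR adjusted p = 0.402). Hspa4l, its close relative, had 13.2 to 15.3 in EA (median 15.3) and 12.8 to 14.7 in control (median 13.8), a log2 fold change of 0.11 with a standard error of 0.060 (edgeR adjusted p = 0.439). Both genes had 3 EA libraries above all control libraries and neither was called. Within single libraries the FPKM of Hsph1 was 1.53 to 1.95 times that of Hspa4 in EA and 1.35 to 1.57 times in control, and 4 of 5 EA libraries lay above all control libraries in this ratio.

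Hspa8, the constitutive Hsc70, was the most abundant member in every library. It lies on chromosome 8, bases 44990014 to 44993179 of Rnor_6.0, plus strand. Its FPKM was 334, 343, 323, 275 and 336 in EA 1 to EA 5, against 254, 290, 261, 324 and 299 in control 1 to control 5. EA 1, EA 2 and EA 5 lay above all control libraries, EA 4 lay within the control range, and EA 3 was just under control 4. The log2 fold change was 0.20 with a standard error of 0.074 (edgeR adjusted p = 0.272, DESeq2 adjusted p = 0.131), and Hspa8 was not called.

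The table also has 3 rows described as similar to heat shock protein 8, and RefSeq names 33 Hspa8 pseudogenes in the rat. LOC688655 on chromosome 6 held 1066 to 18219 counts in EA and 3801 to 13961 in control. LOC680121 on chromosome 11 held 4746 to 21441 in EA and 2389 to 7939 in control, and LOC688932 on chromosome X held 899 to 2494 in EA and 1224 to 2315 in control. These rows changed places between libraries, with LOC688655 highest in EA 1 and LOC680121 highest in EA 4. Together they took 26.7% to 43.4% of the Hspa8-type counts in EA and 27.6% to 37.1% in control, which makes the level of each single row uncertain. Summed with Hspa8, a step added after the data were seen, they had a CPM of 889 to 1125 in EA and 710 to 1037 in control. For the sum the log2 fold change was 0.24 with a standard error of 0.083 (edgeR adjusted p = 0.254), so it was not called.

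**Figure D3:**
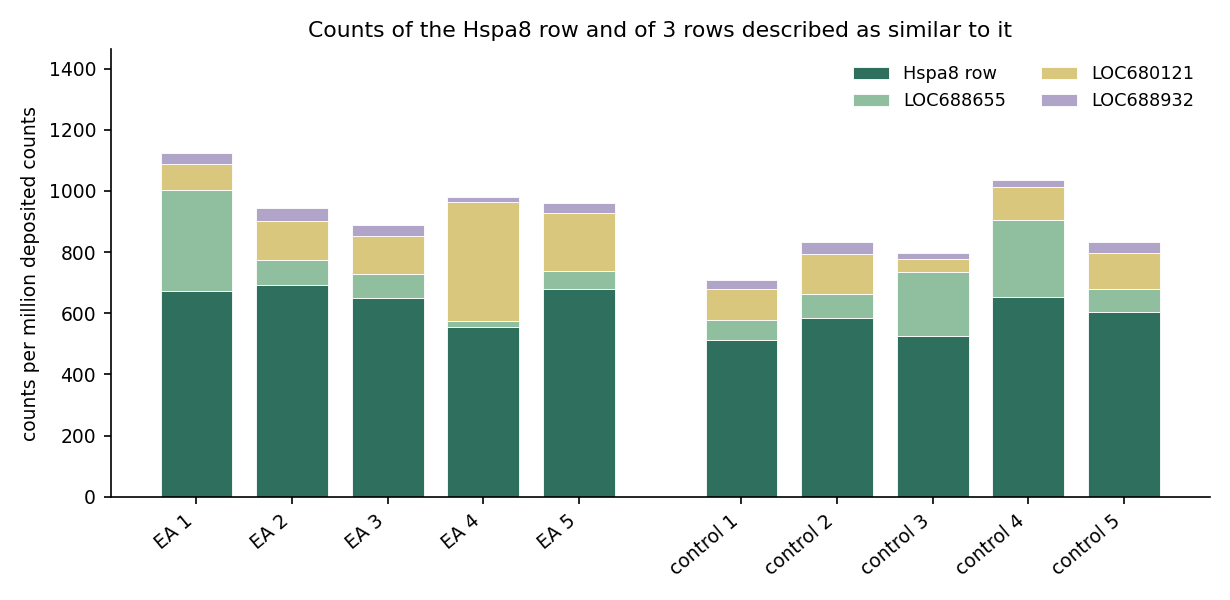
CPM (deposited counts scaled to the library total) of the Hspa8 row (dark green) and of the 3 rows described as similar to it, stacked for each EA library (left) and each control library (right). LOC688655 is large in EA 1, control 3 and control 4, LOC680121 is large in EA 4, and the stacks of the 2 groups overlap (889 to 1125 in EA, 710 to 1037 in control).

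Inside Hspa8 lie 3 rows named SNORD14, small nucleolar RNAs that are cut from introns and guide methylation of ribosomal RNA. Their summed counts were 237, 171, 229, 166 and 241 in EA 1 to EA 5, against 103, 40, 101, 80 and 188 in control 1 to control 5. EA 1, EA 3 and EA 5 lay above all control libraries, and control 5 reached into the EA range. For 1000 counts of Hspa8 there were 4.06 to 7.35 SNORD14 counts in EA and 1.13 to 5.05 in control. The log2 fold changes of the 3 rows were 1.00, 1.25 and 1.05 (edgeR adjusted p = 0.327, 0.223 and 0.237), and none was called. Small RNAs without a poly(A) tail are poorly captured by this kind of library. The rows lie on the same strand as Hspa8, and which RNA their reads came from was not tested.

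Hspa2, best known for its role in sperm formation in rodents, had an FPKM of 6.26 to 8.87 in EA (median 7.19) and 5.46 to 6.88 in control (median 6.64). Its log2 fold change was 0.20 with a standard error of 0.11 (edgeR adjusted p = 0.439). Hspa13, a short member bound to microsomes that lacks the peptide-binding domain, had 13.0, 14.5, 15.1, 15.4 and 15.4 in EA 1 to EA 5, against 14.6, 13.1, 13.0, 13.9 and 12.8 in control 1 to control 5. EA 3, EA 4 and EA 5 lay above all control libraries and EA 1 lay among the low control ones. Hspa13 had a log2 fold change of 0.15 with a standard error of 0.063 (edgeR adjusted p = 0.330).

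Hspa12a, a distant member with an unusual ATPase domain, and Hspa14, which binds the ribosome with a J-domain partner, showed the smallest differences. Hspa12a had an FPKM of 28.5 to 39.9 in EA (median 34.9) and 33.1 to 37.0 in control (median 35.3). Its EA libraries lay on both sides of the control range, 2 above it and 2 below it. Its log2 fold change was -0.013 with a standard error of 0.083 (edgeR adjusted p = 0.969). Hspa14 had 9.03 to 10.4 in EA (median 9.33) and 8.64 to 11.5 in control (median 9.36), a log2 fold change of -0.0013 with a standard error of 0.085 (edgeR adjusted p = 0.997). The sign of Hspa14 turned to 0.00084 with RLE (median ratio) scaling, so no direction is given for it.

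Set in order of level in EA, the members ran Hspa8, Hsph1, Hspa4, Hspa1b, Hspa12a, Hspa13, Hspa4l, Hspa14, Hspa2 and Hspa1l, with a mean FPKM of 322 for Hspa8 and 1.81 for Hspa1l. Neighbours whose EA ranges overlapped were Hspa4 and Hspa1b, Hspa1b and Hspa12a, and Hspa13 and Hspa4l. In control Hspa1b moved down to between Hspa2 (mean 6.48) and Hspa1l (mean 1.12), its range there overlapping that of Hspa2, and Hspa13 and Hspa4l, which overlapped, changed places. All other members kept their order. Hspa1b made up 6.10% of the summed mean FPKM of the members in EA and 1.13% in control, and Hspa8 made up 56.1% in EA and 58.5% in control. This order and these shares use the named row of each member, without LOC108348108 and the rows similar to Hspa8. The summed FPKM of the 10 members was 634, 577, 563, 495 and 603 in EA 1 to EA 5, against 447, 497, 456, 534 and 506 in control 1 to control 5, with only EA 4 inside the control range.

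Counted over the family, edgeR called 0 of the 10 members, beside 0.0198% of all genes tested. At an unadjusted p under 0.05 it placed 5 members higher in EA, namely Hspa1b, Hsph1, Hspa8, Hspa13 and Hspa1l, where 6.59% of all genes were higher, and 0 members lower, where 7.15% of all genes were lower. DESeq2 called 2 members higher, Hspa1b and Hsph1, beside 0.508% of all genes, and 0 lower, beside 0.600%. 1 member, Hspa1b, had all EA libraries above all control libraries, as did 0.850% of all genes. A log2 fold change above 0 was found in 8 of 10 members and in 49.5% of all genes tested. The median was 0.17 over the members and -0.0018 over all genes tested.

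The inducible and the constitutive members were then set side by side, as a description with no test. The median log2 fold change was 1.50 over the 2 inducible members and 0.13 over the 8 constitutive ones, a difference of 1.37. The inducible members were themselves far apart, with 2.70 for Hspa1b and 0.30 for Hsph1, and the constitutive Hspa1l at 0.72 lay between them. If Hspa4l is counted as inducible the difference is 0.16, so its size rests on Hspa1b and on how few genes the class holds. Within libraries, the FPKM of Hspa1b relative to Hspa8 was 0.196, 0.0245, 0.146, 0.0595 and 0.112 in EA 1 to EA 5, against 0.0201, 0.0154, 0.0229, 0.0157 and 0.0228 in control 1 to control 5. All EA libraries were above all control libraries in this ratio, as they were for Hspa1b itself, though EA 2 by little. The ratio uses the named rows alone. In EA 2, LOC108348108 held 46.1% of the counts of both Hspa1 rows, and 26.7% of the Hspa8-type counts lay outside the Hspa8 row. Hsph1 relative to Hspa8 was 0.217 to 0.293 in EA and 0.225 to 0.263 in control, and the groups overlapped.

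**Figure D4:**
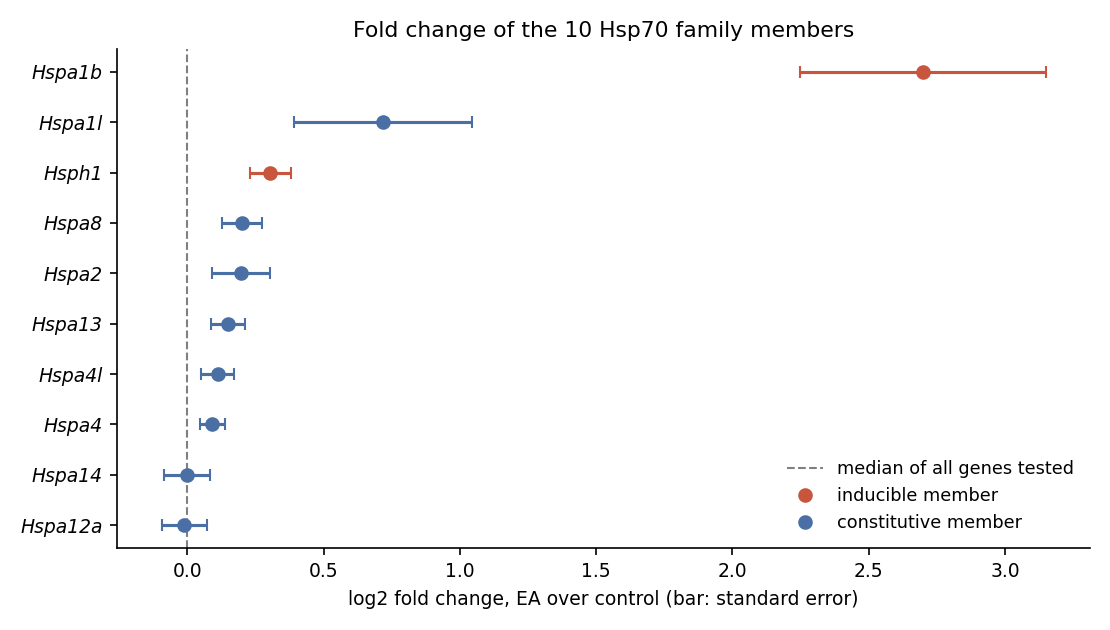
Log2 fold change of EA over control for the 10 members, points with standard error bars, inducible members in red and constitutive ones in blue, with the median of all genes tested (-0.0018) as a dashed line. Hspa1b stands at 2.70, the constitutive Hspa1l at 0.72 and Hsph1 at 0.30, and the remaining members lie between -0.013 and 0.20.

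The family has other members, of which 4 of the 6 listed had a row and were tested. Hspa5 (BiP), the Hsp70 of the endoplasmic reticulum, had a mean FPKM of 129 ± 5.80 in EA and 113 ± 5.74 in control (SD, n = 5 each). Its log2 fold change was 0.21 with a standard error of 0.039, it missed the edgeR call (adjusted p = 0.119), and its fold change was below the threshold of 1.2 although the DESeq2 adjusted p was 0.00062. Hspa12b, known from endothelial cells, had 5.16 ± 1.39 in EA and 8.03 ± 1.70 in control, with a log2 fold change of -0.61 and a standard error of 0.18. Hspa12b was not called by edgeR (adjusted p = 0.210) and was called lower by DESeq2 (adjusted p = 0.0245). The other genes tested, Hspa9 (mortalin) of mitochondria and Hyou1 of the endoplasmic reticulum, had log2 fold changes of 0.06 and 0.07. Markers of endothelium moved in the direction of Hspa12b: of 5 listed, 3 were tested and 0 had a log2 fold change above 0. edgeR called 0 of them (0.0198% of all genes tested), with 2 lower at an unadjusted p under 0.05 (7.15% of all genes). DESeq2 called 1 lower (0.600% of all genes), the endothelial receptor Tie1 (edgeR log2 fold change -0.46, standard error 0.10, edgeR adjusted p = 0.172, DESeq2 adjusted p = 0.00408). Tie1 had an FPKM of 4.56 to 6.11 in EA and 6.67 to 8.15 in control, with no overlap. In 2.25% of all genes all EA libraries lay below all control libraries. The summed FPKM of the endothelial markers was 36.8 to 42.0 in EA and 42.5 to 57.2 in control, and their part in the result was not tested. Cldn5 was listed at 0 in all 5 EA libraries and in 3 of the 5 control libraries, with 0.291 and 1.25 in the others, and was not tested. No direction is given for Cldn5, and these values do not show that it was absent from the tissue. Of other marker lists, 0 of 5 oligodendrocyte markers had a log2 fold change above 0 (summed FPKM 795 to 1040 in EA and 903 to 1340 in control). Of 3 tested blood markers 0 did (6.29 to 15.9 in EA and 7.68 to 43.0 in control). In each list 2 were lower at an unadjusted p under 0.05 (7.15% of all genes) and 0 were called by edgeR or DESeq2. Of 5 neuron markers 4 were above 0, and 2, Gad1 and Gad2, were higher at that p (6.59% of all genes). Of 5 astrocyte markers 4 were above 0, and 1, Aldoc, was lower at that p, with all EA below all control libraries (2.25% of all genes). The summed FPKM of the astrocyte markers overlapped, with 1092 to 1586 in EA and 1270 to 1490 in control. Of 5 microglia markers 1 was above 0, and 0 were past that p in either direction. edgeR called 0 of these. The part of any marker list in the levels of the members was not tested.

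The partners of Hsp70 were examined next, from lists written with earlier results known. Of 13 J-domain partners, 4 were higher in EA at an unadjusted p under 0.05 and 0 were lower, where 6.59% of all genes tested were higher and 7.15% lower, and the median log2 fold change was 0.09, beside -0.0018 over all genes tested. Dnaja1, which brings clients to cytosolic Hsp70, was called: its FPKM was 112 ± 8.22 in EA and 86.1 ± 3.41 in control (SD, n = 5 each), with a log2 fold change of 0.40 and a standard error of 0.051 (edgeR adjusted p = 0.0220). Dnaja1 lost its call in 7 of 10 fits that left out 1 library, all but those without EA 1, EA 3 or control 1, with an adjusted p of up to 0.136 (without control 3). Dnajb1 (Hsp40), a heat-inducible partner of Hspa1, had 34.5 ± 1.43 in EA and 27.9 ± 2.50 in control, a log2 fold change of 0.33 and a standard error of 0.056. Dnajb1 missed the edgeR call (adjusted p = 0.0897) and was called by DESeq2 (adjusted p = 9.73e-05). In 3 of the 13 genes all EA libraries lay above all control libraries, as in 0.850% of all genes.

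Of 9 exchange factors and other cofactors, 2 were higher at an unadjusted p under 0.05 (6.59% of all genes) and 0 lower (7.15% of all genes), with a median of 0.06. Stip1 (Hop), which links Hsp70 to Hsp90, had 84.0 ± 6.29 in EA and 74.9 ± 3.83 in control, with a log2 fold change of 0.19 and a standard error of 0.050 (edgeR adjusted p = 0.183). Bag3, an exchange factor that directs clients to autophagy, had 6.97 ± 0.558 in EA and 5.89 ± 0.616 in control, with a log2 fold change of 0.27 and a standard error of 0.084 (edgeR adjusted p = 0.224). Neither was called by either tool.

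Among 4 heat shock factors and regulators tested, 2 were higher at an unadjusted p under 0.05 (6.59% of all genes) and 0 lower (7.15%), with a median of 0.03. Hsbp1, which binds and restrains heat shock factor 1, had a log2 fold change of 0.13 with a standard error of 0.038 (edgeR adjusted p = 0.207), and Hsf2 had 0.17 with a standard error of 0.069 (edgeR adjusted p = 0.314). Of 12 other targets of heat shock factor 1, 7 were higher at an unadjusted p under 0.05 and 0 were lower, with a median of 0.14. DESeq2 called 4 of them higher, beside 0.508% of all genes, and edgeR called 0, beside 0.0198%. Chordc1, a partner of Hsp90, had 12.7 ± 1.29 in EA and 9.03 ± 0.950 in control, with a log2 fold change of 0.51 and a standard error of 0.079 (edgeR adjusted p = 0.0897). Hsp90aa1, the inducible Hsp90, had 186 ± 9.91 in EA and 158 ± 5.67 in control, with a log2 fold change of 0.26 and a standard error of 0.044 (edgeR adjusted p = 0.0897). A second row described as Hsp90-alpha, LOC103692716, also on chromosome 6, had 144 ± 10.3 in EA and 123 ± 8.48 in control. Whether the 2 rows divide the reads of 1 gene was not tested. DESeq2 called Chordc1 and Hsp90aa1. In 4 of the 12 genes, these 2 among them, all EA libraries lay above all control libraries, as in 0.850% of all genes.

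Genes that respond to body temperature, to neuronal activity and to stress hormone were listed beside them. Of 3 temperature-sensitive RNA-binding genes, 2 were lower at an unadjusted p under 0.05 (7.15% of all genes), 0 were higher (6.59%), 2 were called lower by DESeq2 (0.600% of all genes) and 0 were called by edgeR. Srsf5, a splicing factor, was not past either threshold, with a log2 fold change of 0.04 and a standard error of 0.048 (edgeR adjusted p = 0.762). Cirbp and Rbm3, RNA-binding genes known to be induced by cold, were lower in every EA library than in every control library, as were 2.25% of all genes. Cirbp had an FPKM of 16.2 ± 2.05 in EA and 21.4 ± 1.70 in control, with a log2 fold change of -0.38 and a standard error of 0.088 (edgeR adjusted p = 0.174, DESeq2 adjusted p = 0.0116). Rbm3 had 27.1 ± 1.68 in EA and 34.0 ± 3.56 in control, with a log2 fold change of -0.30 and a standard error of 0.076 (edgeR adjusted p = 0.178, DESeq2 adjusted p = 0.0245). Of 7 immediate early genes, 3 were higher at an unadjusted p under 0.05 (6.59% of all genes), 0 were lower (7.15%) and 0 were called by edgeR or DESeq2, with a median of 0.28. Fosb and Junb, transcription factors induced by firing, had log2 fold changes of 0.31 and 0.32 with standard errors of 0.11 and 0.13 (edgeR adjusted p = 0.257 and 0.300). Of 5 glucocorticoid-responsive genes 0 were past an unadjusted p under 0.05, and Zbtb16 and Tsc22d3 had log2 fold changes of -0.38 and 0.22 with standard errors of 0.22 and 0.13 (edgeR adjusted p = 0.464 and 0.480). Body temperature was not among the data, and the part of any of these genes in the levels of the Hsp70 members was not tested.

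**Figure D5:**
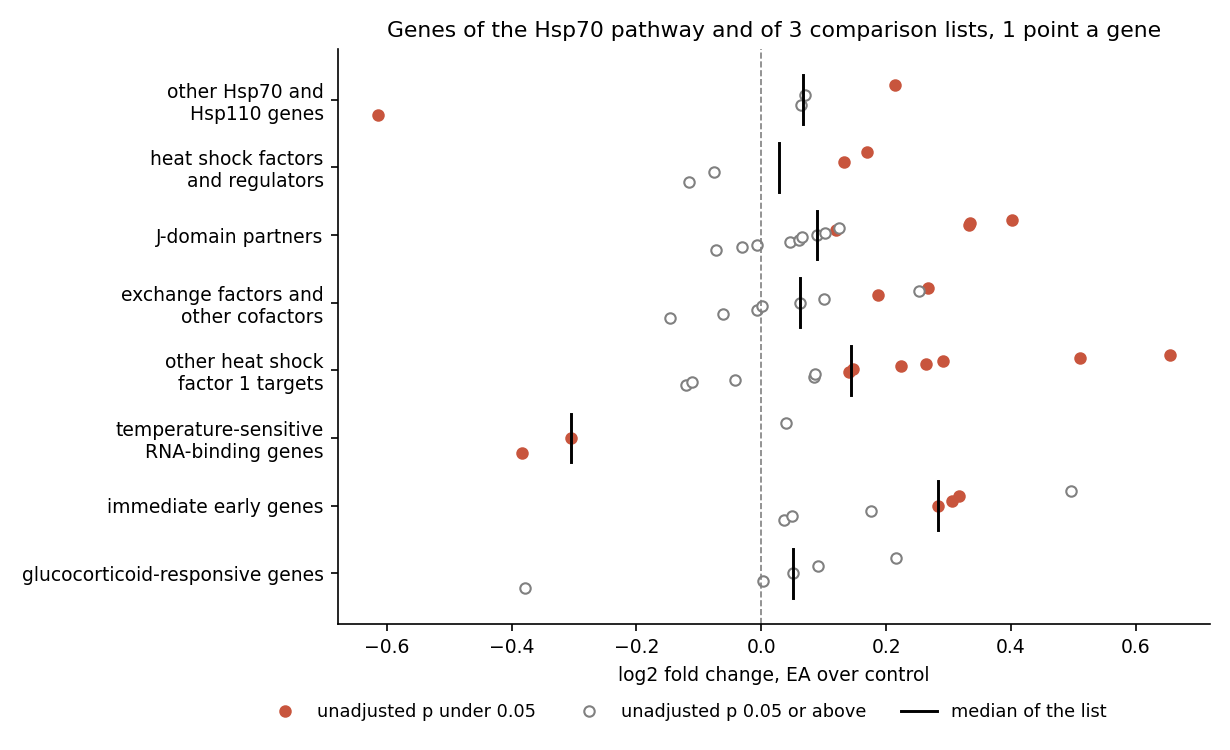
Log2 fold change of EA over control for each tested gene (point) of the 8 lists, filled where the unadjusted edgeR p is under 0.05, with the median of each list as a black line. The medians run from -0.30 in the 3 temperature-sensitive RNA-binding genes to 0.28 in the immediate early genes, and the 7 filled targets of heat shock factor 1 lie to the right of 0.

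Across the 10 libraries, the genes whose level was most like that of Hspa1b were Ccdc117, Ahsa2, Fubp1, Csmd1 and Rab11a, with a Pearson r of 0.97, 0.92, 0.92, 0.90 and 0.90 on log2(FPKM + 0.1). Ahsa2 is a relative of an Hsp90 activator, Fubp1 binds single-stranded DNA and Rab11a directs recycling endosomes. Ccdc117, the nearest, had a log2 fold change of 0.44 with a standard error of 0.092, missed the edgeR call (adjusted p = 0.172) and was called by DESeq2 (adjusted p = 0.00408). Most like Hsph1 were Epha7, Stip1, Rfxapl1, the Hsp90-alpha row LOC103692716 and Sprr1a, with an r of 0.96, 0.96, 0.96, 0.94 and 0.94. Among the members, Hspa1l had an r of 0.81 with Hspa1b, and Hspa4 had an r of 0.80 with Hsph1, while Hspa1b and Hsph1 had 0.63 with each other. These points share the libraries and the difference between the groups, and the nearest genes were picked from all 15169 genes tested.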

How the data were processed

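The members and gene lists were chosen with earlier results of these data known. Poly(A) RNA of 5 EA and 5 control libraries was sequenced by the authors as paired reads, trimmed with Cutadapt, aligned with HISAT2 to Rnor_6.0, assembled with StringTie and merged with gffcompare. Versions in the submitters' processing notes are 2.0 for HISAT2, 1.3.0 for StringTie and 0.12.2 for a further aligner, Bowtie. The deposited FPKM were computed by the authors with ballgown. The deposited counts are whole numbers per gene, made in a way not given in the sources used here, and were treated as read counts. Values of 0.0001 FPKM were read as 0.

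Genes reaching 0.5 FPKM in 5 or more of the 10 libraries held 99.9% of all counts, and their counts were fitted with edgeR 4.0.16 (TMM, quasi-likelihood F test, group only) in R 4.3.3. Standard errors are the log2 fold change over the root of F. Alternatives were DESeq2 1.42.0, limma 3.58.1 on log2(FPKM + 1) and log2(FPKM + 0.1), other filters and scalings, robust edgeR, a replicate block, leaving out libraries and, added after the data were seen, near-identical rows summed. Tables and figures used data.table (version 1.17.8), Python 3.11.15, numpy 2.4.6, pandas 2.3.3 and matplotlib 3.10.9.

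The text names all 10 members, of each list every called gene and the 2 tested genes with the lowest p, and the 5 genes most like Hspa1b and Hsph1. Overlapping or near-identical rows are named where a value turns on them. Tie1, Cldn5, Ttr, Dcn, Slc6a20, Gad1, Gad2, Aldoc, Srsf5, Hspa9 and Hyou1 were named after their values were seen. RefSeq (GRCr8) names a gene numbered 108348108 Hspa1b and another Hspa1a with the synonym Hspa1b, so which RefSeq gene each Hspa1 row stands for is unsettled, and no RefSeq promoter was assigned to either row.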

Additional observations from a re-analysis of the deposited data

Results flagged for a closer look

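In 24 groups of 5 libraries (the 10 members, LOC108348108 and its sum with Hspa1b, in EA and in control), the gap of the highest or lowest library to its neighbour was set against the whole range of the group, and 2 passed Dixon's limit of 0.71. Chance alone gives such a gap in about 1 of 20 groups. For Hspa8, EA 4 had an FPKM of 275, below the other EA libraries, the nearest of which had 323 (gap over range 0.7103). In EA 4 the similar row LOC680121 held 21441 counts, the most of any library. For Hspa2, control 1 had an FPKM of 5.46, below the other control libraries, the nearest of which had 6.61 (gap over range 0.808). The cause of either gap was not tested.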

How the results depend on the processing

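edgeR as described called 3 genes higher and 0 lower in EA. DESeq2 called 77 higher and 91 lower. limma called 1 lower on log2(FPKM + 1), and 1 higher and 1 lower on log2(FPKM + 0.1). Without EA 2 and EA 5 together 2 genes were called lower. Leaving out 1 library gave 1 to 5 genes higher (5 without EA 3, 1 without EA 5 or control 5) and 0 to 1 lower (1 without EA 1 or control 1). With the replicate number as a block 0 genes were called higher. Libraries with the same number did not deviate together (r of -0.003 to 0.061, and 1 of 5 EA libraries closest to its own number). These values do not show that the numbers pair the libraries, but they cannot exclude it, and the labels state no pairing. Over 35 named genes and 21 alternatives, 695 of 735 log2 fold changes kept their direction and side of the threshold, 16 gained a call, 12 lost one and 12 changed sign. The sign changes were all in Hspa14 and Hspa12a. Hspa14 was 0.0023 with edgeR's own count filter, 0.00084 with RLE scaling, 0.0012 with DESeq2, 0.0056 with the replicate block and -0.040 to 0.075 with 1 library left out, and Hspa12a was -0.072 to 0.043 with 1 library left out. Hspa1b kept a log2 fold change of 2.17 to 3.01 and was called by DESeq2, with both rows summed, without EA 2 and without EA 2 and EA 5 together (adjusted p = 0.0184). Its edgeR adjusted p was highest without control 3 (0.315). Hsph1 kept 0.25 to 0.36 and was called by DESeq2 alone. The difference between inducible and constitutive members was 0.16 in place of 1.37 with Hspa4l counted as inducible. No symbol had more than 1 row, so summing rows of 1 symbol gave no value. The number of libraries, the spread of Hspa1b within EA and the division of counts among near-identical rows limit these values, and the cause of each change was not tested.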

Other observations

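Next to the LOC108348108 row, 2332 bases away on chromosome 20, the table has LOC100364500, described as an RT1 class I gene like CE11, of the rat's major histocompatibility complex. Its counts were 14, 126, 0, 23 and 9 in EA 1 to EA 5, against 4, 11, 11, 94 and 59 in control 1 to control 5. It was highest in EA 2, control 4 and control 5, which are also among the 4 libraries where LOC108348108 was high, and EA 4, where LOC108348108 was highest, had 23. The class I rows RT1-CE7 and RT1-CE4, whose spans take in Hspa1b, were tested and had log2 fold changes of -0.15 and -0.02 (edgeR adjusted p = 0.711 and 0.988). The row AABR07072810, which overlaps one end of Hspa1l, held 7 to 29 counts in EA and 4 to 30 in control, with a log2 fold change of 0.42 (edgeR adjusted p = 0.769).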
